A study of Drosophila melanogaster with 2 samples.

Results

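The genes described here encode the factors that start, extend and end protein synthesis and the enzymes that load tRNAs with amino acids. They were selected by symbol from the protein-coding genes of the fly annotation. Symbols starting with eIF, eEF or eRF were taken, as were symbols made of an amino acid code, or GluPro, and RS, with or without -m. This gave 87 of 13945 protein-coding genes on the nuclear arms: 44 initiation factor genes, 10 elongation and release factor genes, 18 genes of cytosolic tRNA synthetases and 15 of mitochondrial ones (-m). The rule used symbols alone and no binding value, though it was set with earlier results of these data known. Cytosolic and mitochondrial synthetases were also split by symbol alone, and whether a gene without -m also serves mitochondria was not examined.

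Binding was mapped by chromatin immunoprecipitation and sequencing (ChIP-seq) in whole wandering larvae of the last instar, with males and females pooled. The larvae carried dsf, a nuclear receptor related to tailless with no known ligand, fused at its C-terminus to green fluorescent protein, and an anti-GFP antibody was used. The 2 biological replicates, 3 and 4, made up 1 group, and no control was analysed here. Whole animals mix many cell types, so the tissue behind a region is unknown.

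Initiation factors bring the small ribosomal subunit, the mRNA and the initiator tRNA together. Elongation factors deliver loaded tRNAs and move the ribosome along, and release factors free the finished chain at a stop codon. Each synthetase joins an amino acid to its tRNAs. The proteins are needed in every cell, and many of their genes have housekeeping promoters.

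A gene was called bound when a region of the authors' IDR-thresholded list had its summit, the position of strongest signal, no more than 1 kb from any of its transcription start sites (TSS). IDR, the irreproducible discovery rate, is a procedure that thresholds a list by how alike replicates rank regions. The list held 1708 nuclear regions, which are the 1708 strongest of the 29975 nuclear regions in the list pooled over both replicates. Being in the list thus does not mean that both replicates ranked that region alike. Ranks count nuclear regions only, with 1 the strongest. Each replicate's own list, background included, held 29974 (replicate 3) and 29973 (replicate 4) nuclear regions. Signal values are the authors' and order regions within a list. Depth is unknown, since the files hold no read counts.

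Of the 87 genes, 17 (19.5%) were bound, beside 12.2% of all protein-coding genes. The 4 groups differed in their counts. Cytosolic synthetase genes had 7 of 18 bound (38.9%), and elongation and release factor genes 3 of 10. Initiation factor genes had 6 of 44 (13.6%), close to the share of all genes. Mitochondrial synthetase genes had 1 of 15 (6.67%). Shares for the other genes of the ribosome were 48.4% for 93 cytoplasmic ribosomal protein genes and 27.4% for 73 mitochondrial ones. These differences between lists were not tested. The count moved with the rule, as did that of all genes. With the summit within 250 bp, 15 members were bound, beside 9.05% of all protein-coding genes. Within 500 bp the count was 16, beside 10.9%, and within 2 kb it was 19, beside 14.6%. In the strongest 25% of the IDR-thresholded list 8 were bound, beside 3.48%. With a TSS inside the region itself 11 were bound, beside 7.24%. In the strongest regions of both replicates, a rule chosen after seeing the data, 12 were bound, beside 7.94%. Cytosolic synthetase genes had 4 of 18 bound with a TSS inside the region (7.24% of all genes) and with each region given only to the nearest gene (8.15%), and 3 in the strongest 25% of the list.

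**Figure D1:**
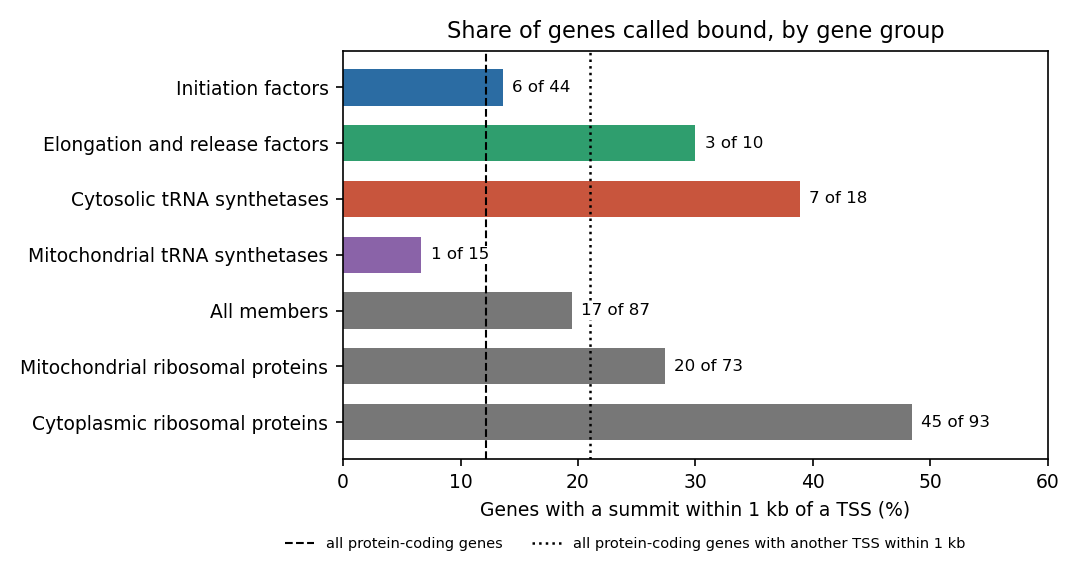
Bars give the percentage of genes with a summit within 1 kb of a TSS, with the counts beside them, for 4 groups of members, all members and 2 sets of ribosomal protein genes. The dashed line is all protein-coding genes (12.2%) and the dotted line those with another gene's TSS within 1 kb (21.0%); cytosolic synthetases (38.9%) lie above both and mitochondrial synthetases (6.67%) below both.

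Sequences around summits are given first for 7 bound members, in order of rank, because most of these summits lie between promoters that face away from each other. Each is read 5′ to 3′ on the member's strand from the RefSeq sequence of genome release 6 (dm6), up to 50 bp either side of the summit and without annotated exons. Capitals mark, on either strand, the TATA box word TATAAA, the replication-related word TATCGA and the E-box word CACGTG. The eEF2 sequence was added after values were seen, as a bound member with no other protein-coding TSS near its summit. SerRS and eIF3h are not shown, since exons cover most or all of their windows. The other 8 bound members are not shown either. Of these, 5 lie on the same chromosome arm, which was left out before members were taken by rank. They are eIF6, eIF3c, MetRS, AspRS and eEF1alpha1. The printed sequences are thus not those of the 7 best-ranked bound members.
eIF2Bbeta, chrX:2703853-2703937, plus strand: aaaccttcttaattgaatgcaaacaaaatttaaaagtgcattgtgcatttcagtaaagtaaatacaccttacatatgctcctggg
eIF4EHP, chr3R:24109113-24109213, minus strand: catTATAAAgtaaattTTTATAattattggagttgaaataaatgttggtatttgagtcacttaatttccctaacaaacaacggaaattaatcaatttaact
eIF1, chr3L:3223220-3223320, plus strand: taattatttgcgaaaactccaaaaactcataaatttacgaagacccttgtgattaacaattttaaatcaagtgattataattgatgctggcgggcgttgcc
GluProRS, chr3R:23958566-23958650, minus strand: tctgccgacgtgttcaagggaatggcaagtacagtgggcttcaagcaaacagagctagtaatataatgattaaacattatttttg
IleRS, chr3L:22288474-22288574, plus strand: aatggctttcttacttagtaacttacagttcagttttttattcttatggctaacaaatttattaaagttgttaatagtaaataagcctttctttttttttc
eRF1, chr3L:20348202-20348302, plus strand: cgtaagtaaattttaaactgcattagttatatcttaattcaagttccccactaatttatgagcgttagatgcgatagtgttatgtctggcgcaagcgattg
eEF2, chr2L:21682165-21682251, minus strand: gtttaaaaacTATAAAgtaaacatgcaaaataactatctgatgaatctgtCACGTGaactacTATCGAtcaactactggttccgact

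The windows are rich in A and T, from 61.2% of bases in GluProRS to 77.2% in eIF4EHP. Over the full windows, exons included, of all 17 bound members the median was 66.3% A and T, beside 67.3% for the 1184 IDR-thresholded summits near a protein-coding TSS.

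The highest ranks among the members, 2 and 51, were at initiation factor genes, and the synthetase gene SerRS came next at 147. The best-ranked summit lay nearer the TSS of another gene. This region, at eIF2Bbeta, which encodes a subunit of the exchange factor that recharges eIF2 with GTP, ranked 2 of all nuclear regions, 2 in replicate 3 and 1 in replicate 4. Its summit was 684 bp upstream of eIF2Bbeta but 35 bp upstream of Ugalt, a UDP-galactose transporter gene on the opposite strand. Counted only for the gene with the nearest TSS, this region belongs to Ugalt.

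The gene eIF6, whose product keeps the large ribosomal subunit from joining too early, ranked 51 in the pooled list, 31 in replicate 3 and 87 in replicate 4. Its summit lay 99 bp upstream of the TSS. Both replicates thus placed the eIF6 region among their 100 strongest. Signal values there were 165.0 in replicate 3, 148.6 in replicate 4 and 315.0 in the pooled list.

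The cap-binding protein eIF4EHP, which is known to repress chosen mRNAs, was the single bound gene among 13 eIF4 genes (7.69%, beside 12.2% of all genes). Its region ranked 211 in the pooled list, 283 in replicate 3 and 162 in replicate 4. The summit lay 203 bp upstream of eIF4EHP and 173 bp upstream of its neighbour CG18428, so the neighbour was slightly nearer.

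Of the 16 eIF3 genes, whose complex sits on the small subunit, 2 were bound (12.5%, near the 12.2% of all genes). The core subunit gene eIF3c ranked 237 in the pooled list, 206 in replicate 3 and 302 in replicate 4, with a summit 34 bp upstream. The gene eIF3h had a pair of summits within 1 kb. The stronger, 4 bp upstream of a TSS, ranked 436 in the pooled list, 1138 in replicate 3 and 273 in replicate 4. Within 1 kb the best rank in replicate 3 was 407, at a different summit.

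Start codon selection is the known role of eIF1. The strongest region at its gene, 71 bp upstream, ranked 265 in the pooled list and 448 in replicate 4. Replicate 3 listed no region within 1 kb. The signal value was 171.8 in the pooled list and 84.22 in replicate 4. The promoter is shared with RpL28, a ribosomal protein gene, whose TSS was 310 bp from the summit.

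The bound elongation and release factor genes ranked from 876 to 1089, below all 6 bound initiation factor genes. The stop codon reader eRF1 ranked 876 in the pooled list, 727 in replicate 3 and 1347 in replicate 4, with its summit 103 bp upstream. The gene of eEF2, the GTPase that moves the ribosome by a codon, ranked 997 in the pooled list and 539 in replicate 3. In replicate 4 the summit within 100 bp ranked only 11291, while the best region within 1 kb ranked 1771, just past 1708. The gene eEF1alpha1, whose product carries loaded tRNAs to the ribosome, ranked 1089 in the pooled list, 1033 in replicate 3 and 1393 in replicate 4. It is the one member with an annotated snoRNA gene inside it on the same strand. These last genes, eEF2 and eEF1alpha1, were the 2 bound members with no other protein-coding TSS within 1 kb of the summit.

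Among cytosolic synthetase genes SerRS, for serine, ranked highest, at 147 in the pooled list, 92 in replicate 3 and 264 in replicate 4. Its summit lay 10 bp downstream of a TSS and 18 bp upstream of that of CG17260. The bifunctional gene GluProRS, for glutamate and proline, ranked 348 in the pooled list, 390 in replicate 3 and 335 in replicate 4. IleRS, for isoleucine, ranked 409, 426 and 472 in the same order. The ranks of these last genes differed little between replicates.

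The aspartate enzyme gene AspRS ranked 1024 in the pooled list, 633 in replicate 3 and 1546 in replicate 4. Its summit was 381 bp upstream of AspRS and 105 bp upstream of Nmda1, which encodes a glutamate receptor subunit. MetRS, for methionine, ranked 804 in the pooled list and 997 in replicate 4, and replicate 3 listed no region within 1 kb. GlyRS, for glycine, ranked 1141 in the pooled list, 3244 in replicate 3 and 890 in replicate 4. AlaRS, for alanine, ranked 1437 in the pooled list and 913 in replicate 4, and the best region of replicate 3 within 1 kb ranked 2786.

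The set of 8 cytosolic synthetase genes whose mammalian counterparts form the multi-synthetase complex, grouped after the values were seen, had 4 bound: GluProRS, IleRS, MetRS and AspRS. The other 10 had 3 bound. Beside these stand 12.2% of all genes and 23.3% of all genes with a neighbour facing the other way, an arrangement that all 8 have. The grouping supports no difference. LeuRS, GlnRS and LysRS, of the same complex, had no region within 1 kb in any of the pooled and replicate lists. ArgRS had one at rank 7200 of the pooled list.

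One mitochondrial synthetase gene was bound. ArgRS-m ranked 1699, near the end of the list, with a summit 145 bp upstream. It ranked 687 in replicate 3, but the matching summit in replicate 4 ranked 22694 and the best within 1 kb ranked 6047. Of 12 amino acids whose cytosolic and mitochondrial genes have matching symbols, the cytosolic gene alone was bound for 5 and the mitochondrial gene alone for 1. For 6 neither was bound, and for 0 both were. With 12.2% of all protein-coding genes bound, pairs with both bound would be few in any case. No exclusion is read from these 12 pairs. Glutamate, proline and phenylalanine are outside this count, since their symbols do not match. For glutamate and proline, GluProRS was bound, and GluRS-m and ProRS-m were not. PheRS-m was among the strongest regions of replicate 3, at rank 1192, and had none within 1 kb in replicate 4 or in the pooled list.

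**Figure D2:**
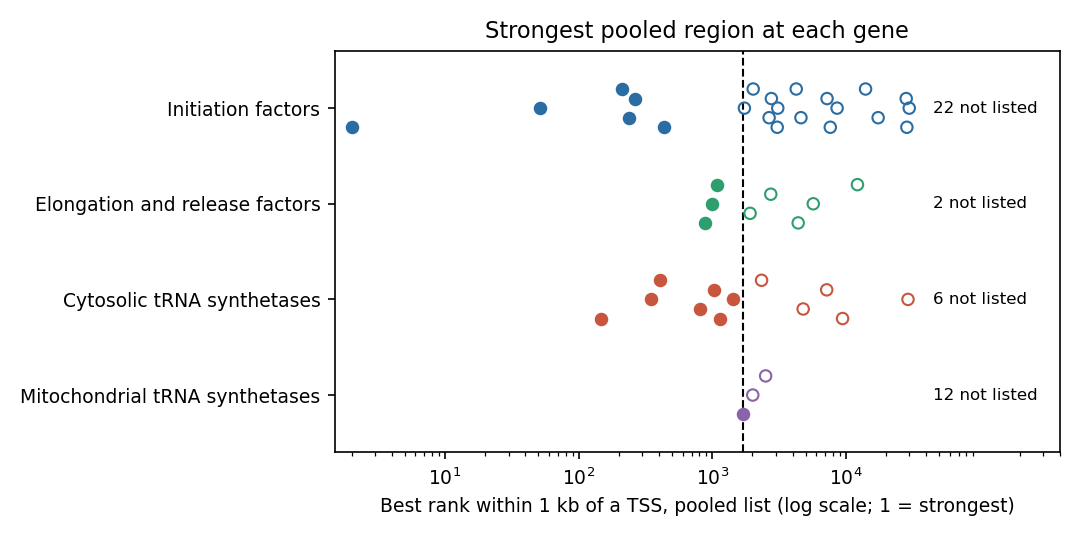
Each point is a gene, placed by the best rank of a pooled region within 1 kb of its TSS on a log axis; filled points are bound and open points are not, and genes with no such region are counted at the right. The dashed line is the end of the IDR-thresholded list (1708), just past which lies eIF3l at 1742.

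Of the 70 unbound members, 28 had a pooled region within 1 kb and 42 had none. Over all members 51.7% were listed, beside 49.2% of all protein-coding genes. The eIF3 subunit gene eIF3l came next after the bound genes, at rank 1742 in the pooled list, 1657 in replicate 3 and 2173 in replicate 4. Its pooled signal value was 72.78, and that of ArgRS-m, the last inside the list, was 73.66. The gene of eRF3, the GTPase partner of eRF1, ranked 1922 in the pooled list, 1808 in replicate 3 and 1436 in replicate 4. Thus the order of genes near the end of the list rests on small differences in signal.

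The genes CysRS-m, eIF3m and ValRS followed at 2012, 2027 and 2342, all without a region in replicate 3. AspRS-m ranked 2512 in the pooled list, 2772 in replicate 3 and 2453 in replicate 4. The remaining 4 of the 10 best-ranked unbound genes were eIF5B, which joins the subunits, at 2667, eEF5, the fly eIF5A, at 2745, the scaffold gene eIF4G1 at 2773 and eIF1A at 3068. In replicate 3 the best region at eEF5 ranked 715, and in replicate 4 it ranked 3417.

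Ranks of a few further unbound genes follow, picked for their known roles. The cap-binding gene eIF4E1 ranked 4619 in the pooled list, 6255 in replicate 3 and 5829 in replicate 4. The gene of eIF2alpha, the subunit whose phosphorylation slows translation, ranked 8613 in the pooled list and 6852 in replicate 4, with no region in replicate 3. The helicase gene eIF4A had no region within 1 kb in any of these lists. In all, 27 members were absent from the pooled list and both replicate lists within 1 kb. Absence is common: of all protein-coding genes 49.2% were listed in the pooled list, 47.1% in replicate 3 and 54.6% in replicate 4. The share of all genes absent from every list is not given, so the 27 are not read as a trait of the members. In alphabetical order, the first 10 members without a pooled region were AlaRS-m, AsnRS-m, GlnRS, GluRS-m, IleRS-m, LeuRS, LeuRS-m, LysRS, MetRS-m and PheRS-m.

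How alike the replicates ranked these genes was examined as the comparison between samples. Of the 17 bound members, 13 had a summit within 100 bp among the 1708 strongest regions of replicate 3, 15 among those of replicate 4 and 11 among both. The pooled list was made from both replicates, so this overlap is partly built in. The matching share over all bound genes is not given, so these counts do not set the members apart. Taken alone, replicate 3 placed 17 members (19.5%) within 1 kb of its 1708 strongest regions, beside 11.5% of all protein-coding genes. Replicate 4 placed 20 (23.0%), beside 12.6% of all. The mean was 18.5 ± 2.12 members (SD, n = 2). Bound members outside the strongest regions of a replicate were eEF2 and ArgRS-m, ranked lower in replicate 4, and GlyRS and AlaRS, ranked lower in replicate 3. The others, eIF1 and MetRS, were unlisted in replicate 3, which is no measure of signal there. At 14 bound members matched in both replicates, pooled signal was 0.954 to 1.34 times the summed replicate signals (median 1.01). At eIF1 and MetRS, pooled signal exceeded that of replicate 4 by 87.6 and 46.8. Why they were unlisted was not tested. In the wider lists, 31 members had a region within 1 kb in both replicates, 24 in replicate 4 alone, 3 in replicate 3 alone and 29 in neither. Replicate 3 thus listed 39.1% of members, beside 47.1% of all protein-coding genes, and replicate 4 listed 63.2%, beside 54.6%.

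**Figure D3:**
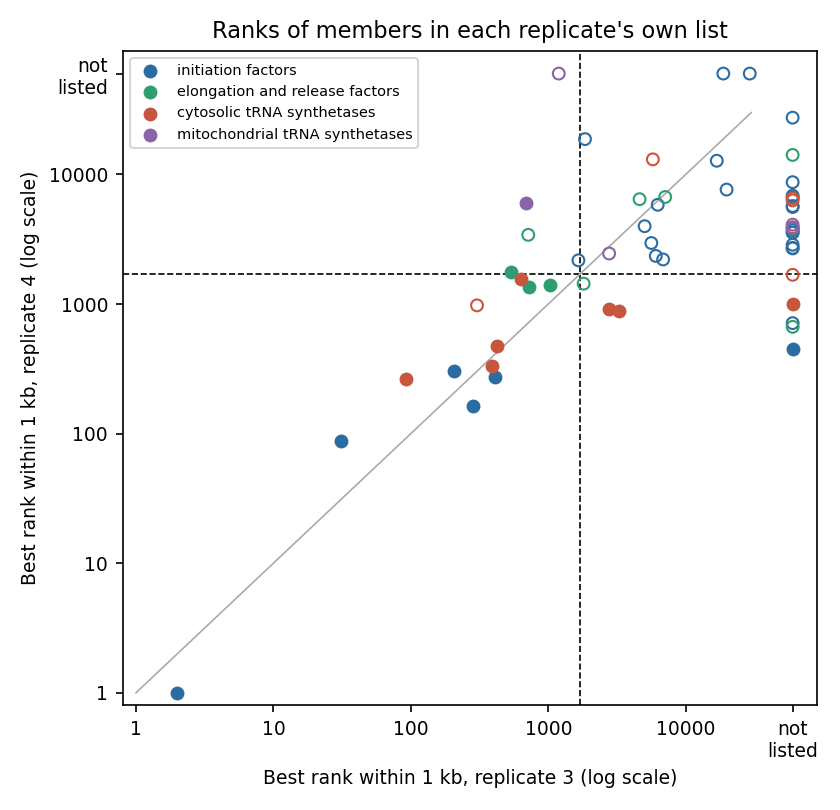
Each point is a gene with a region within 1 kb in at least 1 replicate, placed by its best rank in replicate 3 and replicate 4 on log axes; filled points are bound, dashed lines mark rank 1708 and the grey line equal ranks. The points at the right edge are the 24 genes listed in replicate 4 alone, which include the bound genes eIF1 and MetRS.

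The asparagine enzyme gene AsnRS had a region within 1 kb among the strongest of each replicate and yet was unbound. Its best region ranked 303 in replicate 3 (at -193 bp from the TSS) and 976 in replicate 4 (at -80 bp). The best pooled region within 1 kb ranked 4798 (at -351 bp). These summits lay more than 100 bp apart, so they do not count as the same region by the 100 bp rule. AsnRS is still among the 12 members bound in the strongest regions of both replicates, a rule that needs no shared summit. Signal values at eEF1gamma (rank 667) and eIF2A (rank 712) in replicate 4 were 72.3 and 70.14, and neither gene had a pooled region within 1 kb. At these genes, being unlisted in the pooled list went with a high rank in replicate 4.

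Summits at the members lay mostly upstream of their start sites, as at bound genes at large. Of 17 bound members, 15 had the summit upstream of the nearest of their TSS and 2 downstream, at a median of -99 bp. Over all bound protein-coding genes, 1463 of 1695 had it upstream, at a median of -138 bp. Of the 17 summits, 15 (88.2%) also lay within 1 kb of another protein-coding gene's TSS, beside 70.0% for all bound genes. For 12 members (70.6%, beside 57.9% of all bound genes) the summit fell between the member's TSS and that of a gene running the other way.

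Neighbours were closer than the member in 5 cases (29.4%, beside 34.6% of all bound genes). These were Ugalt at eIF2Bbeta, CG18428 at eIF4EHP, the clathrin adaptor gene AP-1sigma at GluProRS, Nmda1 at AspRS and the centrosome gene Plp at GlyRS. The summit at GluProRS was 225 bp from its own TSS and 35 bp from that of AP-1sigma. The summit at GlyRS was 211 bp from its own TSS and 207 bp from that of Plp. With each region given only to the nearest gene, 12 members (13.8%) were bound, beside 8.15% of all protein-coding genes. Which gene a shared region serves cannot be told from these files.

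**Figure D4:**
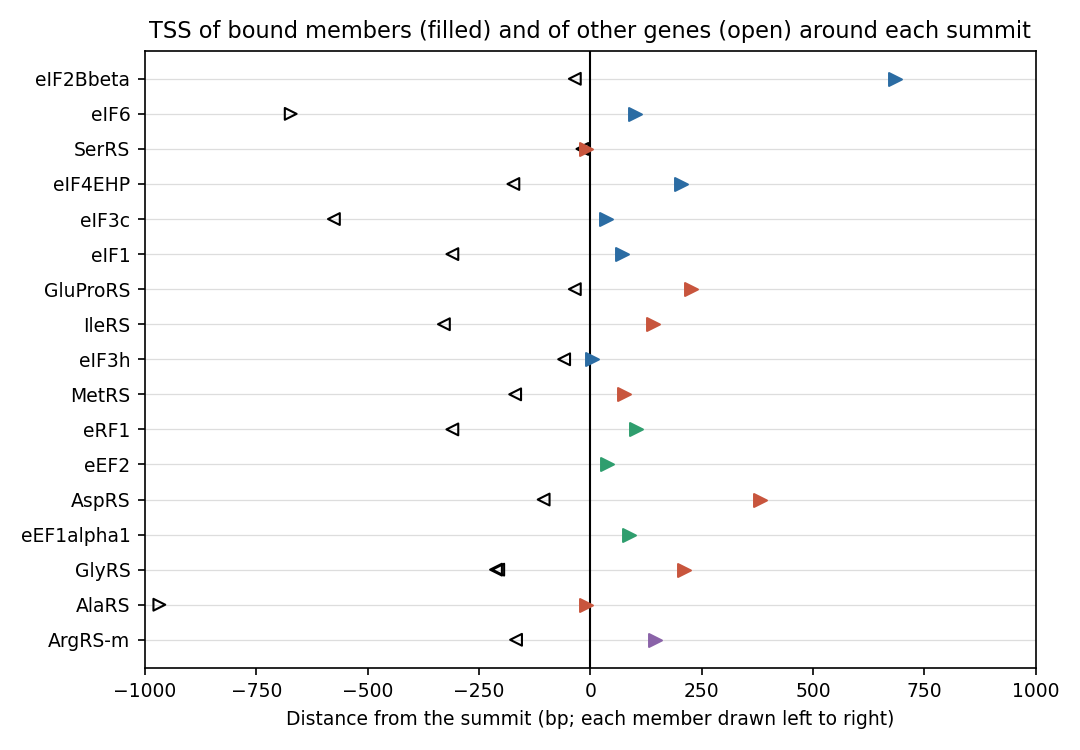
Rows are the 17 bound members in order of rank, with the summit at 0 and distances in bp; filled arrowheads are the nearest TSS of the member, drawn left to right, and open arrowheads are other protein-coding TSS pointing in their direction of transcription. In 12 rows the summit lies between arrowheads that point away from each other, and the rows of eEF2 and eEF1alpha1 have no open arrowhead.

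Promoter arrangement differed among the groups in a way that no binding value enters. Another protein-coding gene's TSS lay within 1 kb of a TSS for 18 of 18 cytosolic synthetase genes, 7 of 15 mitochondrial ones, 23 of 44 initiation factor genes and 7 of 10 elongation and release factor genes. The share was 42.9% over all protein-coding genes. Among all genes with such a neighbour 21.0% were bound, and among those without one 5.49%. In members the counts were 16 of 55 (29.1%) and 1 of 32 (3.12%). The part of promoter arrangement in the shares bound was not tested. The number of start sites also goes with the call: 9.31% of all genes with 1 TSS were bound and 26.7% of those with 3 or more. Of the members, 64.4% had 1 TSS, beside 73.5% of all genes.

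Short words known from housekeeping promoters were searched in the members' promoters. In windows of 300 bp, 250 of them upstream of the gene's 5′ end, TATCGA, found in replication-related elements of housekeeping promoters, was in 39 members (44.8%), beside 27.7% of all protein-coding genes. It was in 9 of 17 bound members (52.9%, beside 40.8% of all bound genes) and 30 of 70 unbound ones (42.9%, beside 25.9% of all unbound genes). GTCACA, part of Motif 1, was in 27.6% of members and 17.1% of all genes. It was in 3 bound members (17.6%, beside 19.6% of all bound genes) and 21 unbound ones of 70, beside 16.8% of all unbound genes. GAGAGA was in 2.3%, beside 12.3% of all. Words were searched on both strands and separately, so they may overlap, and no test was made.

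The word TCTTT from 5 bp before to 10 bp after a TSS, read on the gene's strand, resembles the TCT initiator of ribosomal protein genes. It was found at 8 members (9.2%), beside 2.61% of all genes. These were eIF3i, eIF3g1, eIF3m, eIF4A, eEF1alpha2, eEF2, eEF5 and TyrRS, of which eEF2 was bound. Within 50 bp of the 17 bound summits, TATAAA occurred at 5 (29.4%, beside 23.7% of 1184 promoter summits) and TATCGA at 3 (17.6%, beside 12.8%). AAGTCA, a core that tailless-group receptors are known to recognise, occurred at 0 of 17, beside 4.98% of promoter summits, a number of windows too small to read an absence from. Its share in the promoter windows was 18.4% of members and 16.2% of all genes.

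Genes that work beside the members were counted in the same way, from lists too short to set their shares apart from the 12.2% of all genes. The phenylalanine enzyme's cytosolic subunits, alpha-PheRS and beta-PheRS, whose symbols fall outside the naming rule, and the synthetase scaffolds AIMP1, AIMP2 and AIMP3 had 0 of 5 bound and 1 listed in the pooled list within 1 kb. The 10 genes with symbols starting mEF, mIF, mRF, mRRF or mTTF, mostly mitochondrial translation factors, had 0 bound. Of these genes, 5 were listed in the pooled list (beside 49.2% of all genes), 7 in replicate 3 (beside 47.1%) and 5 in replicate 4 (beside 54.6%). Of 20 regulators of translation 3 were bound (15.0%), and 12 were listed in the pooled list (49.2% of all genes were). Thor, the inhibitor of eIF4E, ranked 1175 in the pooled list, 1130 in replicate 3 and 1689 in replicate 4, with the summit 40 bp downstream of a TSS. The gene of the poly(A)-binding protein pAbp ranked 1078, with the summit 553 bp downstream. The kinase gene Lk6, whose product phosphorylates eIF4E, ranked 8 in the pooled list, 8 in replicate 3 and 14 in replicate 4, but its summit was 988 bp upstream, at the edge of the window. None of these 3 summits had another protein-coding TSS within 1 kb.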

How the data were processed

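Per the deposited file descriptions, each replicate's list of peaks and background was made from its own alignment and 1 further file, and the pooled list from both alignments. The signal value and the −log10 of a q-value per region are the authors' deposited columns. Aligner, peak caller, versions and control scaling: not given in the sources used here. Only dm6 files were used. Their arms match the RefSeq release 6 sequence and the Ensembl release 115 annotation. Mitochondrial regions (23 in the IDR-thresholded list) were left out of ranks.

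Summits were assigned to TSS with Python 3.11.15, numpy 2.4.6 and pandas 2.3.3, and the assignment was checked on simulated summits. Named genes are every bound member, the 10 best-ranked unbound ones, the first 10 alphabetically without a pooled region, and eIF4E1, eIF2alpha, eEF1alpha1 and eEF2. Others were chosen after their values were seen. Members and lists were chosen with earlier results of these data known. Counts are given beside all protein-coding genes, with no list test. Tor was matched as mTor. Printed windows were also trimmed of annotated exons. Alternatives varied window, TSS, gene assignment, threshold and replicate.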

Additional observations from a re-analysis of the deposited data

How the results depend on the processing

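The number of bound members, 17, ranged from 8 in the strongest 25% of the IDR-thresholded list (3.48% of all protein-coding genes) to 32 in the strongest 5000 pooled regions (24.3% of all), and was 11 where the TSS had to lie inside the region (7.24% of all). In the strongest 25%, elongation and release factors had 0 bound, cytosolic synthetases 3 and mitochondrial synthetases 0. In the strongest 5000, initiation factors had 14, elongation and release factors 6 and mitochondrial synthetases 3. With the TSS inside the region, initiation factors had 3 and cytosolic synthetases 4. Cytosolic synthetases also fell to 4 when regions went only to the nearest gene. Mitochondrial synthetases had 0 without replicate 3 and 2 without replicate 4, and 0 in the strongest regions of both replicates, a setting chosen after seeing the data (7.94% of all), where 12 members were bound. Leaving out replicate 3 kept 15 of the 17 bound members and added 5, and leaving out replicate 4 kept 13 and added 4. The median summit position was -142 bp without replicate 4 and -100.5 bp without replicate 3. Within 50 bp in place of 100 bp, 6 in place of 11 bound members were shared by the strongest regions of both replicates. Windows of 500 bp, 250 bp and 2 kb gave 16, 15 and 19 bound members, beside 10.9%, 9.05% and 14.6% of all genes. The cause of these changes was not tested, beyond shorter or longer lists and windows. With no read counts and no control analysed here, no value has a depth-based error.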

Other observations

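Strong regions were missing from single lists beyond the members. Of the 1708 strongest pooled regions, 113 (6.62%) had no summit within 500 bp in the whole list of replicate 3, and 5 had none in that of replicate 4. Of the 1708 strongest regions of replicate 4, 253 (14.8%) had none in replicate 3 and 109 (6.38%) had none in the pooled list, among them the regions at eEF1gamma and eIF2A. Of those of replicate 3, 34 (1.99%) had none in the pooled list, among them the region at PheRS-m.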
